A study of Mus musculus with 18 samples.

Results

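The RNA of cultured heart fibroblasts (HFc) was compared with that of cultured kidney fibroblasts (KFc), as 3 HFc libraries against 3 KFc libraries over all genes. These 6 libraries were chosen by their sample titles from the 18 of the study, which also holds cultured tail fibroblasts (TFc) and fibroblasts of the same 3 organs that were transplanted beneath a kidney capsule and recovered by sorting (HFs, KFs and TFs), with 3 libraries each. All cells came from adult male Rosa mT/mG mice on a C57BL/6 background, 10 weeks old, which carry a membrane-bound red fluorescent reporter in every cell and no other modification that the labels name. The cells had grown from dissociated organs for 10 days, and those that were not transplanted were plated again at 50000 cells per well and kept for a further 3 days. HFc and KFc therefore shared strain, sex, age, reporter and culture, and differed in the organ of origin. The isolation protocol that the study's methods refer to includes a sort for CD90+, CD45- and CD31- cells, and the methods speak of sorted fibroblasts for the transplantation experiment, without saying whether this covers the cultured controls. The study calls the 3 replicates of a group biological, and does not say whether they were separate animals or cultures. The p-values therefore measure the spread between libraries, estimated over all 18 of the study and not over HFc and KFc alone.

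Fibroblasts are the connective tissue cells that make and remodel the extracellular matrix. Those of the ventricle arise largely from the epicardium, the outer layer of the embryonic heart, and those of the kidney largely from a stromal progenitor of the intermediate mesoderm that expresses Foxd1. Cells along the body axis carry a record of their position in the *Hox* genes, 4 clusters of transcription factors in which genes at one end of a cluster are used towards the head and genes at the other end towards the tail. Culture on plastic is known to activate fibroblasts towards the contractile, matrix-producing myofibroblast.

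The deposited table holds 38924 genes, of which 17174 had no count in any of the 6 libraries. The libraries held between 21513442 and 31534743 counts, so that a gene at 0 in all 3 libraries of a group lay below about 0.0388 CPM in HFc and 0.0351 CPM in KFc (CPM, counts scaled by the TMM-adjusted library total; the limit is 3 counts over the group and covers counting error only). Mitochondrial genes took between 7.61% and 8.27% of the counts, and 4 Y-linked genes summed to between 182 and 203 CPM. Libraries of one group lay 2.27 to 2.52 apart (root mean square log2 difference of the 500 genes that differed most in each pair), and an HFc and a KFc library lay 4.76 to 4.89 apart. The distance to TFc was 5.66 to 5.73 for HFc and 4.83 to 4.92 for KFc.

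Of the 16577 genes with enough counts to be tested, 2511 (15.1%) were higher and 2322 (14.0%) were lower in HFc than in KFc (edgeR's quasi-likelihood test over all 18 libraries, Benjamini-Hochberg adjusted p at 0.05 or less). These shares are the background for the counts of calls in all gene lists below. The plot of all genes shows both groups of calls, and the median log2 fold change over all genes tested was 0.03, HFc minus KFc, as for all differences that follow. Among the calls, the kidney side held more of the large differences: 1515 genes were lower by over 2-fold and 222 by over 32-fold, against 958 and 74 that were higher. With library totals in place of TMM scaling, 1823 genes were higher and 2664 lower, so that the share of calls on the heart side went from 52.0% to 40.6%. Values below are CPM in replicates 1, 2 and 3, followed by the log2 fold change ± its standard error and the adjusted p from the same test.

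**Figure D1:**
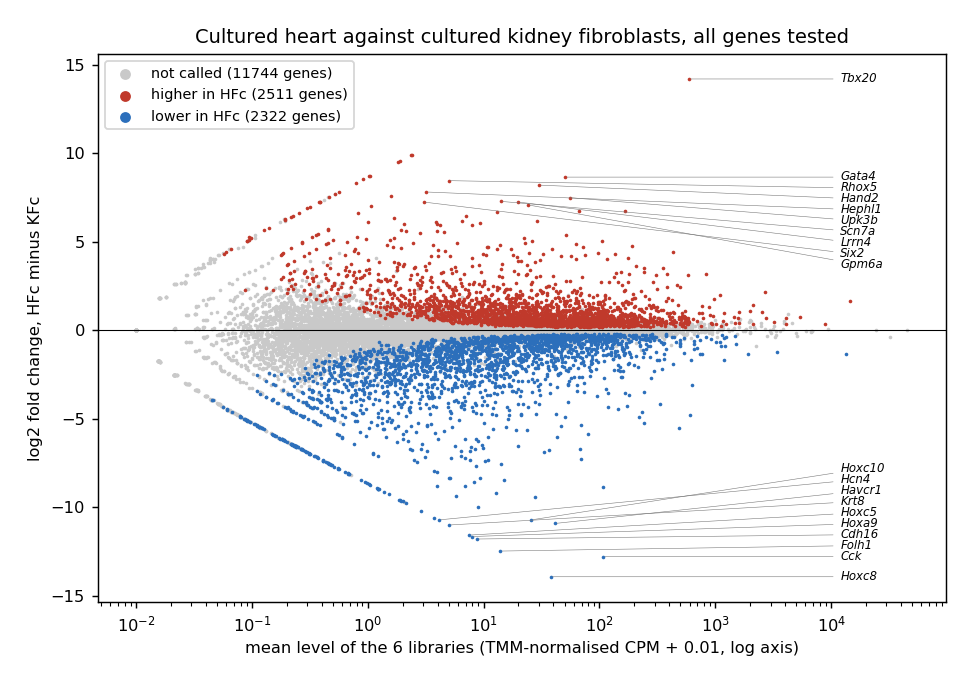
Log2 fold change (HFc minus KFc) of each of the 16577 genes tested against its mean level in the 6 libraries (CPM + 0.01, log axis). Red points are the 2511 genes called higher and blue points the 2322 called lower in HFc, and the symbols mark the 10 protein-coding genes with the largest difference in each direction; the slanted edges are genes without a count in one of the groups.

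Of 16 cardiac developmental transcription factors tested, 9 were higher in HFc, 1 was lower and 6 were not called, with a median log2 fold change of 0.83. *Tbx20* (ENSMUSG00000031965, chr9:24718138-24774303, GRCm38), a T-box factor of the developing heart, had 1180, 1220 and 1150 CPM in HFc and 0.0373, 0 and 0.133 CPM in KFc. Its fitted difference was the largest on the heart side among called protein-coding genes of at least 5 CPM (14.19 ± 0.39, adjusted p = 3.64e-12), and TFc had a mean of 0.329 CPM. *Gata4* (ENSMUSG00000021944, chr14:63198922-63271692), a zinc finger factor that acts with T-box factors in the heart, had 104, 99.9 and 98.9 CPM in HFc and 0.186, 0.419 and 0.133 CPM in KFc (8.65 ± 0.31, adjusted p = 2.62e-10). *Hand2* (ENSMUSG00000038193, chr8:57320983-57324633), a helix-loop-helix factor of the right ventricle and limb, had 56.4, 59.4 and 63.8 CPM in HFc and 0.0746, 0.244 and 0.266 CPM in KFc (8.20 ± 0.34, adjusted p = 1.95e-10). For these 3 genes the lowest HFc library was over 100 times the highest KFc library.

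*Tbx5* (chr5:119832668-119885219), which marks the left side of the heart and the forelimb, had 1.35, 2.88 and 1.87 CPM in HFc and no count in KFc, at least 59-fold higher in HFc (adjusted p = 0.000167). *Tbx18*, a factor of the epicardium, was present in both types, with 86.3, 94.4 and 89 CPM in HFc and 12.5, 13.1 and 12.9 CPM in KFc (2.81 ± 0.25, adjusted p = 5.62e-07). The Notch target *Heyl* (3.58 ± 0.39), the GATA cofactor *Zfpm2* (1.02 ± 0.21), *Nfatc1* of the endocardial cushions (0.89 ± 0.12) and *Gata6* (0.76 ± 0.21) were the other members higher in HFc, with adjusted p between 5.43e-06 and 0.0125. The *Gata6* call was lost without HFc replicate 1 (adjusted p = 0.051). *Tbx3*, a factor of the conduction system and of limb mesenchyme, was lower, with 3.02, 2.23 and 3.14 CPM in HFc and 5.97, 6.46 and 8.31 CPM in KFc (-1.31 ± 0.45, adjusted p = 0.0394). This call did not hold without any one of the 6 libraries (adjusted p from 0.0584 without KFc replicate 1 to 0.133 without HFc replicate 2) or with the replicate number as a block (adjusted p = 0.0544).

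Some other members of the cardiac list were near or at 0 in both types. *Isl1* and *Irx4* had no count in any of the 6 libraries, *Hand1* likewise, and *Nkx2-5*, which was too low to be tested, had 0.546, 0.169 and 0.197 CPM in HFc and 0, 0.0349 and 0 CPM in KFc. *Mef2c*, *Hey1*, *Hey2*, *Tbx2*, *Irx3* and *Irx5* were tested and not called. Their fold changes ran from -1.33 for *Irx3*, with 1.64, 1.73 and 1.18 CPM in HFc and 3.88, 3.49 and 4.15 CPM in KFc (adjusted p = 0.24), to 0.55 for *Mef2c* (adjusted p = 0.297).

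Among 8 tested markers of heart muscle cells, 2 were higher and 1 was lower in HFc. *Tnnt2*, the cardiac troponin T that is also made by some non-muscle cells, had 92.2, 99.2 and 107 CPM in HFc and 2.31, 2.16 and 2.72 CPM in KFc (5.37 ± 0.71, adjusted p = 3.58e-05). *Myl4*, the atrial light chain, had 11.9, 11.2 and 13.2 CPM in HFc and 3.24, 3.39 and 1.93 CPM in KFc (2.08 ± 0.25, adjusted p = 1.13e-05). *Ryr2*, the calcium release channel, was lower, with 2 counts in HFc against 0.634, 0.838 and 0.764 CPM in KFc (KFc to HFc ratio 28.9, 95% counting interval 7.69 to 244, adjusted p = 0.00091). Of the 17 genes on the list, 6 (*Myh6*, *Myh7*, *Myl2*, *Myl3*, *Nppa* and *Pln*) were at 0 counts in all 3 HFc libraries. In KFc each of these had counts in at least 1 library, at no more than 0.447 CPM. The summed level of the list was 110 to 126 CPM in HFc, 12.2 to 12.5 CPM in KFc and 7.46 to 7.6 CPM in TFc, and *Tnnt2* made up most of the sum in HFc.

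Genes of the epicardium and other mesothelia, the flat epithelia that cover the organs of the body cavities, were split. Of 12 tested, 6 were higher and 2 lower in HFc, with a median log2 fold change of 2.23. *Upk3b*, a uroplakin of mesothelial cells, had 109, 110 and 111 CPM in HFc and 0.485, 0.628 and 0.698 CPM in KFc (7.49 ± 0.45, adjusted p = 2.38e-07). The mesothelial surface proteins *Lrrn4* (7.24 ± 0.72, adjusted p = 1.57e-05) and *Gpm6a* (7.08 ± 0.69, adjusted p = 1.76e-06) had 36.5 to 42.7 CPM and 44 to 51.6 CPM in HFc and did not pass 0.4 CPM in any KFc library. *Tcf21*, a factor of the epicardium and of the kidney's own mesenchyme and podocytes, had 129, 134 and 152 CPM in HFc, 5.74, 4.85 and 5.55 CPM in KFc and 0 CPM in TFc (HFc minus KFc 4.68 ± 0.56, adjusted p = 6.95e-05). The list's summed level was 432 to 470 CPM in HFc, 145 to 157 CPM in KFc and 39.7 to 43.1 CPM in TFc. On the other side stood *Wt1*, a factor of the epicardium, the podocyte and the nephron progenitor, chosen after its values were seen, with 1.09, 1.18 and 0.983 CPM in HFc and 21.4, 24.5 and 23.1 CPM in KFc (-4.39 ± 0.3, adjusted p = 4.71e-08).

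**Figure D2:**
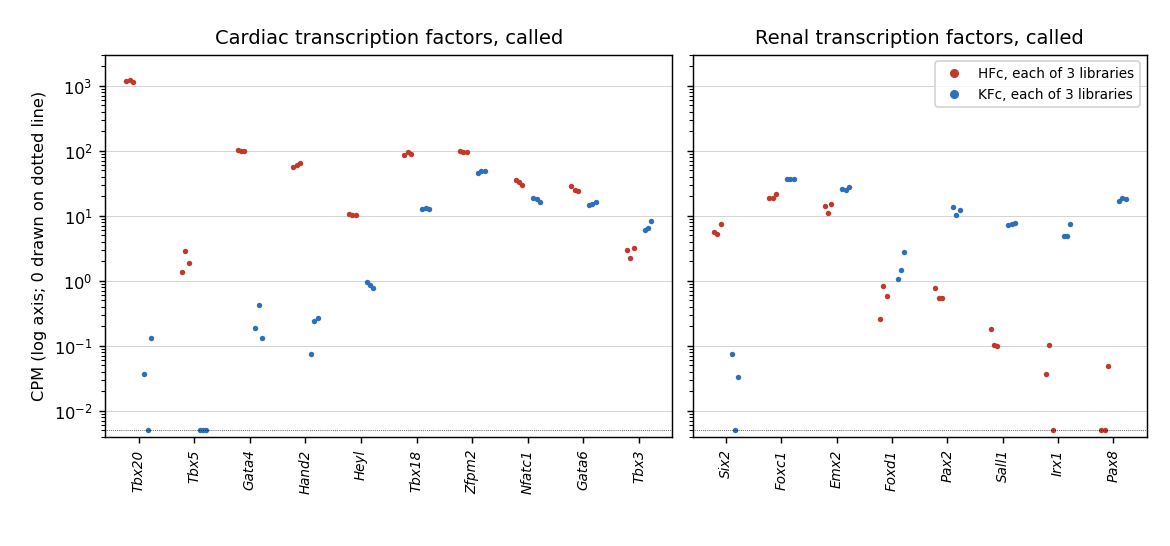
Level of the called cardiac (left) and renal (right) transcription factors reported here in each HFc (red) and KFc (blue) library, in CPM on a log axis with 0 drawn on the dotted line. Genes are ordered by fold change; *Tbx20*, *Gata4* and *Hand2* stand near or above 60 CPM in HFc and below 1 CPM in KFc, and *Pax8* and *Pax2* stand above 10 CPM in KFc and below 1 CPM in HFc.

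Of 21 renal transcription factors tested, 10 were lower in HFc, 2 were higher and 9 were not called, with a median log2 fold change of -1.22. *Pax8* (ENSMUSG00000026976, chr2:24420560-24475599), a paired-box factor of the nephron and its collecting ducts, had 16.8, 18.8 and 18 CPM in KFc and 0, 0 and 0.0491 CPM in HFc, which is 1 count (KFc to HFc ratio 1380, 95% counting interval 248 to 54700, adjusted p = 0.00102). *Pax2*, which acts with *Pax8* in the nephron, had 0.765, 0.542 and 0.541 CPM in HFc and 13.5, 10.4 and 12.1 CPM in KFc (-4.27 ± 1.1, adjusted p = 0.00872). *Pax8* had 0 CPM in TFc. All KFc libraries lay above all HFc libraries for both genes.

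*Sall1*, a zinc finger factor of the nephron progenitor, had 0.182, 0.102 and 0.0983 CPM in HFc and 7.2, 7.4 and 7.61 CPM in KFc (-5.79 ± 1.1, adjusted p = 0.00129), and *Irx1*, of the middle segments of the nephron, had up to 0.102 CPM in HFc and 4.92, 4.96 and 7.38 CPM in KFc (-6.68 ± 1.1, adjusted p = 0.000219). The factors *Foxc1* (-0.91 ± 0.31, adjusted p = 0.0404) and *Emx2* (-0.97 ± 0.26, adjusted p = 0.00964) were present in both types, at 18.5, 18.6 and 21.7 against 37.3, 36.5 and 36.4 CPM for *Foxc1*. *Foxc1* lost its call without any one library (adjusted p up to 0.111 without HFc replicate 1 or 2) and *Emx2* without HFc replicate 2 (adjusted p = 0.0504). *Foxd1*, the stromal progenitor factor, was low in both types, with 0.255, 0.846 and 0.59 CPM in HFc and 1.08, 1.47 and 2.76 CPM in KFc (-1.64 ± 0.56, adjusted p = 0.0392), and lost its call with the replicate number as a block (adjusted p = 0.0664) and without HFc replicate 1, HFc replicate 3, KFc replicate 2 or KFc replicate 3 (adjusted p = 0.145, 0.0891, 0.0592 and 0.194).

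On the other side of the renal list was *Six2* (chr17:85684277-85688274), which keeps the nephron progenitor undifferentiated and also patterns other mesenchyme. It had 5.54, 5.21 and 7.47 CPM in HFc and 0.0746, 0 and 0.0332 CPM in KFc, which is 3 counts (HFc to KFc ratio 169, 95% counting interval 57.4 to 822, adjusted p = 8.25e-08). TFc had a mean of 15.1 CPM. *Eya1*, *Foxc2*, *Gata3*, *Osr1*, *Osr2*, *Tfcp2l1*, *Irx2*, *Hnf4a* and *Grhl2* were tested and not called, and *Lhx1* was too low to be tested.

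The kidney libraries held transcripts of epithelial genes. Of 22 tested epithelial genes (keratins, claudins, junction genes), 13 were lower and none higher in HFc, with a median log2 fold change of -3.60 when genes without a count in HFc are taken at their bound. *Cdh16* (chr8:104601911-104624396), the cadherin of the kidney tubule, had no count in HFc and 18.2, 16.8 and 17.1 CPM in KFc, at least 447-fold lower in HFc (adjusted p = 0.00158). *Krt8* (chr15:101996698-102004482), a keratin of simple epithelia, had no count in HFc and 10.8, 7.96 and 11.3 CPM in KFc, at least 258-fold lower in HFc (adjusted p = 0.00178). *Cldn4*, a tight junction claudin of the collecting duct, was at 0 in HFc and at 2.01, 2.41 and 2.69 CPM in KFc, at least 61.5-fold lower (adjusted p = 0.0105), and *Lad1*, an epithelial anchoring protein, had 0.0983 to 0.146 CPM against 11.9 to 17.5 CPM (-6.81 ± 1.3, adjusted p = 0.001). The list summed to 22 to 30.1 CPM in HFc, 198 to 230 CPM in KFc and 105 to 106 CPM in TFc. In HFc, 8 of its 30 members were at 0 counts (*Krt8*, *Cldn4*, *Cldn6*, *Cldn7*, *Ocln*, *Esrp1*, *Marveld3* and *Cdh16*), and in KFc none were.

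Many genes of differentiated tubule segments had no count, and others were present. In KFc, the proximal transporters *Slc34a1* and *Slc22a6* and the proximal genes *Kap* and *Miox* had no count, nor had *Umod* of the thick ascending limb, *Aqp2* and *Avpr2* of the collecting duct or the sodium channel subunits *Scnn1b* and *Scnn1g*. Of 15 tested proximal tubule genes, 2 were lower and 1 higher in HFc. As many as 7 of the 15 had at most 3 counts over each of HFc and KFc, too few to show a difference. The list summed to 228 to 253 CPM in HFc and 283 to 306 CPM in KFc. *Lrp2* (megalin), the endocytic receptor of the proximal tubule, had 11.5, 10.7 and 11.7 CPM in HFc and 99.2, 98.4 and 92 CPM in KFc (-3.09 ± 0.74, adjusted p = 0.00498). The other calls, *Cubn* (1.38 ± 0.45) and *Aqp1* (-0.99 ± 0.35), did not hold without any one of the 6 libraries (adjusted p from 0.0523, for *Cubn* without HFc replicate 3, to 0.159, for *Aqp1* without HFc replicate 3). Of 16 distal genes, 9 were likewise at or under this limit in both types, 1 was lower and 1 higher. The higher one, the proton pump subunit *Atp6v1b1*, had 0.0729, 0.846 and 0.295 CPM in HFc and 1 count in KFc, and its call (adjusted p = 0.0166) was lost without HFc replicate 2 or KFc replicate 2 or 3 (adjusted p = 0.105, 0.0646 and 0.0664). The lower one, *Pkhd1*, the fibrocystin of cilia in the collecting duct, had 0.364, 1.46 and 0.934 CPM in HFc and 43, 43.6 and 53.9 CPM in KFc (-5.65 ± 1.2, adjusted p = 0.00263). *Havcr1* (KIM-1; chr11:46735080-46779578), which tubule cells make after injury, had 94.2, 68.4 and 87 CPM in KFc and 3 counts in HFc (ratio 2140, 95% counting interval 732 to 10400, adjusted p = 9.2e-05). In bulk RNA, fewer cells of a type and less RNA per cell cannot be told apart, and the part of epithelial cells in the renal factors above was not tested.

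The *Hox* genes called were all lower in HFc, nearly all of them in the HoxA, HoxB and HoxC clusters. Of 34 tested, 28 were lower in HFc, 0 were higher and 6 were not called, where 14.0% of all genes tested were lower. Genes of the HoxA cluster summed to 2.56 to 2.99 CPM in HFc and 118 to 126 CPM in KFc, with 10 of 11 tested lower. HoxB genes summed to 3.83 to 7.29 CPM and 132 to 141 CPM (8 of 9 lower), and HoxC genes to 2.26 to 3.42 CPM and 236 to 238 CPM (9 of 9 lower). HoxD genes were low in both, at 2.23 to 3.35 CPM in HFc and 4.74 to 5.58 CPM in KFc, and 1 of 5 was lower.

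*Hoxc8* (ENSMUSG00000001657, chr15:102990607-102994111), of the middle of its cluster, had 77, 76.3 and 74.2 CPM in KFc and no count in any HFc library. It was at least 1950-fold lower in HFc (adjusted p = 4.09e-08), and TFc had a mean of 3.83 CPM. *Hoxc10* (chr15:102966796-102971893) had 51.5, 51.6 and 51.3 CPM in KFc and 0, 0 and 0.0983 CPM in HFc, which is 2 counts (ratio 1990, 95% counting interval 550 to 16400, adjusted p = 3.96e-09). *Hoxa9* (chr6:52223100-52231089) and *Hoxc5* had no count in HFc, with 16.6, 15.4 and 15.2 CPM and 14.6, 15.5 and 14.8 CPM in KFc, at least 405-fold and 385-fold lower (adjusted p = 2.24e-07 and 2.38e-08). *Hoxc6* (53.6 to 57.7 CPM in KFc), *Hoxb9* (36.4 to 40.4 CPM) and *Hoxa7* (26.9 to 29.9 CPM) were also among the highest in KFc, and each had under 0.7 CPM in every HFc library.

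By place in the cluster, 11 of 12 tested genes of paralog groups 1 to 5 were lower in HFc, 7 of 8 of groups 6 to 8, 8 of 10 of groups 9 to 11 and 2 of 4 of groups 12 and 13. The summed level in HFc was 6.04 to 9.18 CPM for groups 1 to 5 and 0.884 to 1.68 CPM for groups 9 to 11, against 117 to 124 CPM and 142 to 148 CPM in KFc. Among the *Hox* genes with counts in every HFc library were *Hoxc13* (2.99, 2.5 and 2.06 CPM against 10.7, 12.3 and 13 CPM in KFc, -2.24 ± 0.26), *Hoxb4* (2.4, 2.06 and 1.23 against 12.5, 15.7 and 15.5 CPM, -2.92 ± 0.39) and *Hoxd8* (2.22, 1.35 and 1.47 against 1.83, 2.16 and 1.89 CPM, not called, adjusted p = 0.781). TFc had its own levels, with 66 CPM of *Hoxb13* and 11.6 CPM of *Hoxa13*, which had at most 0.0729 CPM in any HFc or KFc library. In the annotation, 7 pairs among 9 of these genes (*Hoxa3* to *Hoxa6*, *Hoxc5*, *Hoxc6* and *Hoxc8* to *Hoxc10*) overlap on the same strand, so that the split of reads between them is uncertain.

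**Figure D3:**
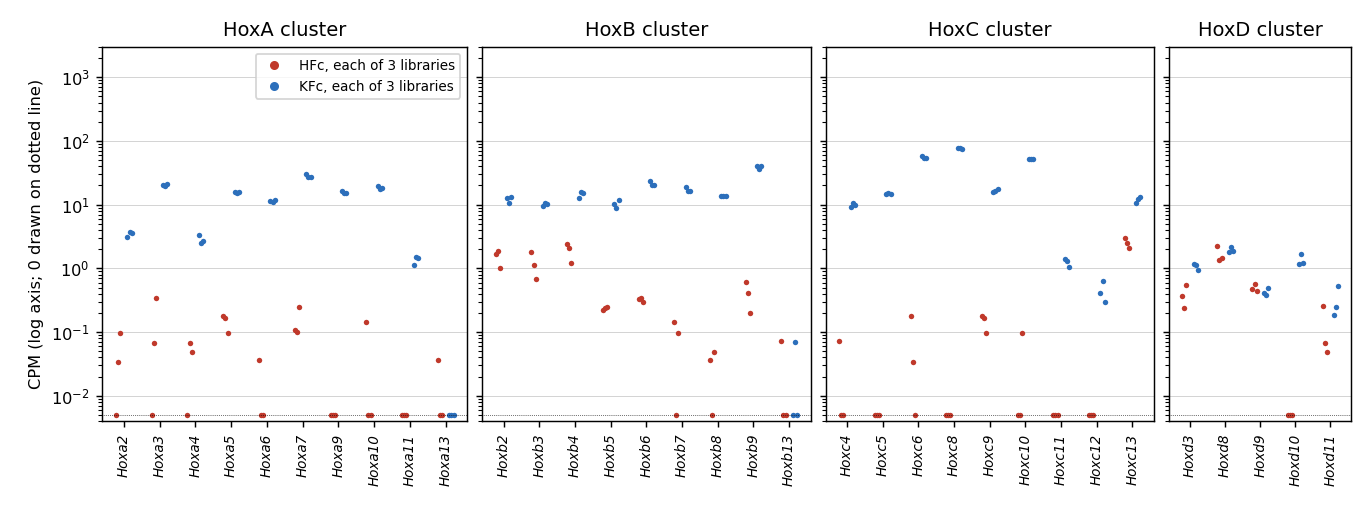
Level of 33 of the 34 *Hox* genes tested in each HFc (red) and KFc (blue) library, by cluster and paralog number, in CPM on a log axis with 0 drawn on the dotted line. Points of KFc lie between 1 and 100 CPM for most genes of HoxA, HoxB and HoxC and above those of HFc, and in HoxD only *Hoxd10* was called.

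From a microarray on other samples, the study drew up lists of genes strongly enriched over tail fibroblasts in sorted heart (eHF) or kidney (eKF) fibroblasts alone. Enrichment in 1 organ alone already selects against the other organ, so that the choice favours the directions below. Of 38 eHF genes tested, 23 were higher and 1 lower in HFc than in KFc, with a median log2 fold change of 2.38. *Hsd11b1*, which makes active glucocorticoid, had 124, 134 and 136 CPM in HFc and 1.23, 1.78 and 0.698 CPM in KFc (6.73 ± 0.81, adjusted p = 1.28e-05), and the homeobox gene *Rhox5* had 10.7, 10.6 and 8.45 CPM against 2 counts (HFc to KFc ratio 431, 95% counting interval 119 to 3560, adjusted p = 3.35e-07). *Olfml1* was low but followed the same pattern (2.3, 2.74 and 4.47 CPM against 1 count, ratio 260, interval 46.2 to 10300). The 1 lower member, *Oas1a*, belongs to a family of near-identical interferon-induced genes, so its counts are uncertain, and its call was lost without HFc replicate 3 (adjusted p = 0.056). Of 74 eKF genes tested, 42 were lower and 3 higher in HFc, with a median of -2.84 with bounds, and without 1 library (any but KFc replicate 2) the number higher was 1. It holds genes of epithelia described above (*Pax8*, *Cdh16*, *Havcr1* and *Cldn4*).

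Among the genes named here without or almost without a count in HFc, the largest ratio belonged to another member of eKF. *Cck* (ENSMUSG00000032532, chr9:121489824-121495694), the hormone cholecystokinin, had 219, 212 and 215 CPM in KFc and 2 counts in HFc (ratio 8320, 95% counting interval 2300 to 68700, adjusted p = 1.1e-07), and TFc had a mean of 35.2 CPM. *Folh1*, a cell surface glutamate carboxypeptidase outside these lists, had 25.9, 29.6 and 28.2 CPM in KFc and no count in HFc, at least 720-fold lower (adjusted p = 2.48e-05). *Hcn4*, the pacemaker channel of the sinus node, had 7.98, 8.13 and 8.57 CPM in KFc and no count in HFc, at least 212-fold lower in the heart cells (adjusted p = 4.12e-05). On the heart side, the sodium channel *Scn7a* had 26.4, 24.5 and 33 CPM against 0.149, 0.209 and 0.166 CPM (7.28 ± 1.1, adjusted p = 0.000175), and the ferroxidase *Hephl1* had 6.52, 7.18 and 5.45 CPM against 2 counts (ratio 278, 95% counting interval 76.5 to 2300, adjusted p = 7.57e-05).

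Contractile genes were lower in HFc. Of 16 genes of smooth muscle and the myofibroblast, 12 were lower and 0 higher, with a median log2 fold change of -1.42, and the list summed to 12900 to 13100 CPM in HFc, 23000 to 23700 CPM in KFc and 8910 to 9000 CPM in TFc. *Acta2*, smooth muscle actin, had 2080, 2100 and 2040 CPM in HFc and 4820, 4840 and 4710 CPM in KFc (-1.21 ± 0.33, adjusted p = 0.0114). The tropomyosins *Tpm1* (-1.34 ± 0.15, adjusted p = 7.15e-06) and *Tpm2* (-1.67 ± 0.28, adjusted p = 0.000301) differed by a similar factor. The 4 members with the largest differences were *Des*, *Myh11*, *Actg2* and *Cnn1*. *Myh11*, smooth muscle myosin, had 15.3, 28.8 and 17.8 CPM in HFc and 956, 968 and 945 CPM in KFc (-5.53 ± 0.62, adjusted p = 7.15e-06). *Cnn1*, calponin, had 16.1, 19.1 and 20.6 CPM against 448, 458 and 445 CPM (-4.60 ± 0.39, adjusted p = 3.97e-07). *Des*, the intermediate filament of muscle and pericytes, had 1.31, 1.15 and 1.38 CPM against 139, 130 and 134 CPM (-6.72 ± 0.43, adjusted p = 1.96e-08). *Actg2* had 11.6 to 13.6 CPM against 437 to 499 CPM (-5.24 ± 0.71), and since actins have near-identical copies, the split between *Acta2* and *Actg2* is uncertain.

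Of 9 tested mural cell markers (pericytes and vascular smooth muscle), 3 were lower and 1 was higher in HFc. The pericyte proteoglycan *Cspg4* had 4.63, 5.18 and 3.29 CPM in HFc and 32.7, 29.6 and 31.5 CPM in KFc (-2.83 ± 0.29, adjusted p = 2.8e-06), and *Itga8*, of mesangial cells and pericytes, had 4.12, 5.96 and 4.57 CPM against 19.3, 18.7 and 18.3 CPM (-1.94 ± 0.43, adjusted p = 0.00319). *Notch3* was higher (0.60 ± 0.18, adjusted p = 0.0172), a call that was lost without HFc replicate 2 or 3 or KFc replicate 3 (adjusted p = 0.0549, 0.0532 and 0.0601). The list summed to 600 to 642 CPM in HFc and 819 to 854 CPM in KFc, the renin gene *Ren1* and the pericyte gene *Higd1b* had no count in either type, and the part of mural cells in the contractile genes was not tested.

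General fibroblast genes leaned towards HFc. Of 18 tested, 8 were higher and 5 lower, with a summed level of 38100 to 40200 CPM in HFc, 20900 to 22100 CPM in KFc and 37600 to 37900 CPM in TFc. *Fn1*, fibronectin, carried much of this, with 21400, 22300 and 23000 CPM against 7210, 7240 and 6860 CPM (1.65 ± 0.17, adjusted p = 2.27e-06). *Dpt*, dermatopontin (4.24 ± 0.73, adjusted p = 0.00039), the stem and stromal cell antigen *Cd34* (3.05 ± 0.48, adjusted p = 0.000177) and the proteoglycan decorin, *Dcn* (53.1, 52.1 and 66.3 against 14.1, 12.4 and 14.1 CPM, 2.08 ± 0.53, adjusted p = 0.00776), were higher as well. *Thy1* (CD90), the antigen by which the study sorts fibroblasts elsewhere, had 128, 130 and 123 CPM in HFc and 66.8, 65.1 and 70.9 CPM in KFc (0.91 ± 0.27, adjusted p = 0.0171), and the call was lost without KFc replicate 1 or 2 (adjusted p = 0.0536 and 0.0577). The receptor *Pdgfra* had 184, 175 and 176 CPM against 107, 108 and 111 CPM and was not called (0.72 ± 0.34, adjusted p = 0.13), although the libraries did not overlap. *Gsn*, the actin-severing gelsolin (-1.32 ± 0.29, adjusted p = 0.00269), and *Pi16*, of adventitial fibroblasts (-3.37 ± 0.88, adjusted p = 0.00926), were lower. *Vim* had 4950 to 5230 CPM in HFc and 3000 to 3170 CPM in KFc (0.71 ± 0.13).

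Of 11 fibrillar collagen genes, 2 were higher and 2 lower, near the shares of all genes tested (15.1% and 14.0%). A fit of the 9 cultured libraries called 4 higher and 6 lower. The summed level was 21000 to 22100 CPM in HFc and 17100 to 18200 CPM in KFc. *Col2a1*, the cartilage collagen that the study names for heart fibroblasts, had 117, 114 and 111 CPM against 24.3, 21.2 and 19.4 CPM (2.40 ± 0.29, adjusted p = 1.51e-05), and *Col24a1* had 0.109 to 0.271 CPM against 18.8 to 20.2 CPM (-6.63 ± 0.75, adjusted p = 7.48e-06). The other fibrillar calls, *Col11a1* and *Col11a2*, did not hold without some single libraries, for *Col11a1* any of the 6 (adjusted p from 0.0645 without HFc replicate 1 to 0.105 without KFc replicate 1) and for *Col11a2* HFc replicate 2 or 3 or KFc replicate 1 (0.0539 to 0.0733). Collagen VI, a beaded filament of the pericellular matrix, was higher in HFc: *Col6a1* had 1020, 1030 and 1090 CPM against 127, 115 and 114 CPM (3.14 ± 0.46, adjusted p = 8.43e-05) and *Col6a2* 618, 621 and 712 CPM against 61, 52.7 and 58.5 CPM (3.50 ± 0.54, adjusted p = 0.000147). Elastin, *Eln*, had 18.4, 22.4 and 20.6 CPM in HFc and 0.709, 1.22 and 0.399 CPM in KFc (4.72 ± 0.94, adjusted p = 0.00131), and the elastic fibre protein *Mfap4* 25.6 to 28.3 CPM against 0.897 to 0.942 CPM (4.84 ± 0.89, adjusted p = 0.000694).

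Some other matrix genes were higher in KFc. *Thbs1*, thrombospondin, which activates latent TGF-beta, had 7520, 7650 and 7270 CPM in HFc and 19200, 19700 and 18700 CPM in KFc (-1.36 ± 0.23, adjusted p = 0.0004). *Spp1*, osteopontin, had 14.8, 15.5 and 13.2 CPM in HFc, 451, 383 and 446 CPM in KFc and a mean of 1380 CPM in TFc (HFc minus KFc -4.88 ± 0.47, adjusted p = 1.47e-06). *Ltbp2* (chr12:84783212-84876532), a microfibril protein related to the TGF-beta binding proteins, had 41.9, 45.3 and 37.3 CPM against 1180, 1170 and 1120 CPM (-4.80 ± 0.33, adjusted p = 4.39e-08), and *Fbn2*, the fetal fibrillin, 0.474, 0.778 and 1.03 CPM against 15.2, 13.2 and 16.9 CPM (-4.34 ± 0.68, adjusted p = 0.000174). Small leucine-rich proteoglycans were 4 of 13 higher and 0 lower, and without any one library 2 were higher. Over the 26 matricellular and elastic fibre genes tested, 5 were higher and 7 lower, with a median log2 fold change of 0.26. A fit of the 9 cultured libraries called 14 of them higher and 10 lower. *Cemip*, a hyaluronan-degrading protein outside these lists, was higher in HFc, with 4410, 4490 and 4380 CPM against 969, 1020 and 959 CPM (2.17 ± 0.42, adjusted p = 0.00102).

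Of 21 basement membrane genes tested, 9 were higher and 4 lower in HFc. The widespread chain *Col4a1* had 6630, 6590 and 6770 CPM in HFc and 4200, 4050 and 3810 CPM in KFc (0.73 ± 0.14, adjusted p = 0.000821), and the mesenchymal laminin chain *Lama4* had 506, 522 and 538 CPM against 98, 106 and 101 CPM (2.36 ± 0.27, adjusted p = 6.95e-06). The lower members with the largest differences were *Lama5*, *Col4a3* and *Col4a4*, chains known from the glomerular basement membrane. *Lama5* had 22.8, 19.2 and 19.6 CPM against 198, 202 and 216 CPM (-3.32 ± 0.7, adjusted p = 0.00198), *Col4a3* 2.26 to 2.5 CPM against 36.9 to 46.8 CPM (-4.14 ± 1.2, adjusted p = 0.0166) and *Col4a4* 2.36 to 3.13 CPM against 24.5 to 25.4 CPM (-3.22 ± 1.0, adjusted p = 0.0255). The calls of *Col4a3* and *Col4a4* were lost without HFc replicate 1, 2 or 3 (adjusted p from 0.0574 to 0.0816), which left 2 lower members. These chains moved with the epithelial genes above, and the part of epithelial cells was not tested.

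Integrins, the receptors for these proteins, changed in both directions, with 4 of 19 higher and 6 lower, beside 15.1% and 14.0% of all genes tested. *Itga4*, a receptor for fibronectin and VCAM1, had 225, 226 and 213 CPM in HFc and 12.9, 13.9 and 13.6 CPM in KFc (4.04 ± 0.14, adjusted p = 5.52e-11). *Itga5*, the other main fibronectin receptor chain, had 124, 126 and 119 CPM against 591, 570 and 549 CPM (-2.21 ± 0.23, adjusted p = 3.69e-06), and the collagen receptor *Itga11* 37.9, 46.7 and 37.6 CPM against 439, 471 and 432 CPM (-3.46 ± 0.48, adjusted p = 5.07e-05). *Itga3*, a laminin receptor of epithelia, was lower too (-3.46 ± 0.8, adjusted p = 0.00386). Of 22 matrix proteases and inhibitors, 1 was higher and 5 were lower, beside the same shares. The higher one, the membrane protease *Mmp16*, had 120, 119 and 118 CPM against 6.97, 7.43 and 7.54 CPM (4.02 ± 0.14, adjusted p = 5.09e-11). Among the lower ones were *Adamts4* (-1.72 ± 0.31), *Mmp9* (-5.41 ± 0.72) and the macrophage elastase *Mmp12* (-1.97 ± 0.11, adjusted p = 5.47e-09).

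Among ligands and antagonists of the BMP and TGF-beta family, 4 of 27 tested were higher and 9 lower in HFc. *Grem1* (chr2:113746164-113758646), a secreted BMP antagonist, had 0.474, 0.711 and 0.147 CPM in HFc, 214, 210 and 223 CPM in KFc and a mean of 182 CPM in TFc (HFc minus KFc -8.82 ± 0.59, adjusted p = 3.51e-08). *Bmp7*, the ligand that the study names for kidney fibroblasts, had no count in HFc and 0.522, 0.244 and 0.266 CPM in KFc, at least 8.74-fold lower (adjusted p = 0.00316), a low level in both. *Tgfb2* was higher, with 221, 214 and 230 CPM against 122, 127 and 112 CPM (0.88 ± 0.14, adjusted p = 0.00015). Of 16 receptors and targets, 3 were higher and 6 lower, beside 15.1% and 14.0% of all genes tested. The receptor *Acvrl1* (ALK1) had 243, 232 and 233 CPM against 29.3, 26.9 and 30.3 CPM (3.03 ± 0.23, adjusted p = 1.08e-07), and the receptors *Bmpr1b* (-2.17 ± 0.3) and *Tgfbr3* (-2.29 ± 0.32) and the target *Id4* (-3.12 ± 0.46) were lower, with adjusted p between 4.89e-05 and 8.93e-05.

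Ligands and secreted modulators of Wnt were mostly lower in HFc, with 14 of 24 tested lower and 4 higher and a median log2 fold change of -1.85 with bounds. *Wnt2* had 0.437, 0.0338 and 0 CPM in HFc and 7.57, 9.28 and 9.87 CPM in KFc (-5.71 ± 0.65, adjusted p = 7.95e-06), and *Rspo3*, which amplifies Wnt signals, 0.0729, 0 and 0.197 CPM against 3.02, 2.79 and 3.36 CPM (-5.20 ± 0.76, adjusted p = 8.67e-05). *Wnt7b*, an epithelial ligand, had 1 count in HFc and 1.75, 2.2 and 3.29 CPM in KFc (ratio 189, 95% counting interval 33.5 to 7500, adjusted p = 0.00153). *Sfrp2*, a secreted Wnt modulator, was higher, with 16.5, 16.2 and 22.4 CPM against 0.112, 0.14 and 0.532 CPM (6.07 ± 1.0, adjusted p = 0.000282). Of 21 receptors and targets, 3 were higher and 7 lower, and without HFc replicate 1 or 2 the number lower was 4. The coreceptor *Lrp5* was higher (205, 210 and 212 against 33.4, 30.4 and 30.9 CPM, 2.73 ± 0.14, adjusted p = 2.01e-09), and the feedback target *Axin2* was lower (0.643 to 0.911 against 2.37 to 6.15 CPM, -2.44 ± 0.55, adjusted p = 0.0035).

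Of 31 growth factors tested, 7 were higher and 11 lower in HFc, beside 15.1% and 14.0% of all genes tested. *Fgf10* (chr13:118669791-118792115), which mesenchyme uses to direct epithelial branching, had 0.255, 0 and 0.147 CPM in HFc and 22.3, 22.9 and 20 CPM in KFc (-7.33 ± 0.73, adjusted p = 2.19e-06). *Hgf*, a stromal mitogen for epithelia, had 0.729, 0.305 and 0.59 CPM against 6.12, 6.04 and 5.68 CPM (-3.46 ± 0.35, adjusted p = 2.65e-06), and *Pdgfb* 0.255 to 0.688 CPM against 5.97 to 7.91 CPM (-3.73 ± 0.85, adjusted p = 0.00351). Of 6 IGF-binding proteins, *Igfbp2* was higher (399, 397 and 384 against 108, 99.9 and 98.3 CPM, 1.95 ± 0.21) and *Igfbp6* lower (2.62, 2.71 and 2.7 against 164, 151 and 157 CPM, -5.87 ± 0.32, adjusted p = 4.32e-09). Genes of retinoic acid metabolism, which patterns both organs, were called in both directions, with 3 of 13 higher and 7 lower. *Aldh1a1*, which makes retinoic acid, had 797, 856 and 830 CPM against 40.8, 36.6 and 39.2 CPM (4.41 ± 0.59, adjusted p = 4.1e-05). *Rdh10* (-2.21 ± 0.42) and *Dhrs3* (-2.10 ± 0.19), which catalyse the step before it forward and backward, were lower.

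Axon guidance genes, which also steer migrating mesenchyme and vessels, were 6 of 29 higher and 11 lower. *Sema3d* had 317, 335 and 313 CPM in HFc and 35.2, 34.6 and 36.5 CPM in KFc (3.18 ± 0.29, adjusted p = 7.49e-07). *Slit3*, a repulsive ligand, had 30.9, 35.5 and 41.3 CPM against 630, 634 and 634 CPM (-4.14 ± 0.38, adjusted p = 7.94e-07), and *Sema3b* 0.219 to 0.688 CPM against 4.42 to 5.11 CPM (-3.36 ± 0.41). Of 16 targets of YAP, a transducer of mechanical tension, 2 were higher and 4 lower, beside 15.1% and 14.0% of all genes tested. Without HFc replicate 1, 2 or 3 or KFc replicate 1 or 2, the number lower was 2. *Ankrd1*, a target that also responds to stretch in heart muscle, had 1520, 1470 and 1490 CPM against 172, 166 and 160 CPM (3.17 ± 0.43, adjusted p = 4.09e-05), and *Fjx1* had 1.2 to 1.47 CPM against 11.1 to 12.4 CPM (-3.14 ± 0.37).

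Genes of mitosis were higher in HFc without exception in the list. All 22 tested members were higher, where 15.1% of all genes tested were, with a median log2 fold change of 1.71. The list summed to 1100 to 1190 CPM in HFc, 348 to 370 CPM in KFc and 621 to 648 CPM in TFc. *Nusap1*, which bundles spindle microtubules, had 23.5, 24 and 21.2 CPM in HFc and 4.44, 4.57 and 4.12 CPM in KFc (2.39 ± 0.33, adjusted p = 5.47e-05). The mitotic kinase *Plk1* had 26.5, 26.7 and 20.5 CPM against 4.66, 6.21 and 5.65 CPM (2.16 ± 0.34, adjusted p = 0.000215). The kinetochore protein *Cenpf* had 112, 117 and 108 CPM against 28, 24.2 and 25.7 CPM (2.11 ± 0.26, adjusted p = 1.71e-05), and cyclin B1, *Ccnb1*, 30.3, 31 and 30.4 CPM against 8.2, 6.04 and 7.88 CPM (2.05 ± 0.33, adjusted p = 0.000222). No HFc library overlapped a KFc library for these 4 genes, and TFc lay between the groups, with means of 9.72, 10.6, 68.5 and 15.4 CPM.

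Members of this list are known to share promoter elements, and the RefSeq promoters of these 4 genes (build GRCm38.p6, 250 bases before the start, written 5′ to 3′ along the gene) are printed to show them. Capitals mark the CCAAT box, read on either strand as CCAAT or its reverse complement.
Nusap1 (chr2:119618048-119618297, plus strand): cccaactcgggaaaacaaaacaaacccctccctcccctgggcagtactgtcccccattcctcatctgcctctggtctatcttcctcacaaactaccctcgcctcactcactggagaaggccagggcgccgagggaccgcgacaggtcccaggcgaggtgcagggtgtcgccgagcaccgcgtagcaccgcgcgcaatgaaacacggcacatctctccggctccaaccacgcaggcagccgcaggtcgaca
Plk1 (chr7:122159185-122159434, plus strand): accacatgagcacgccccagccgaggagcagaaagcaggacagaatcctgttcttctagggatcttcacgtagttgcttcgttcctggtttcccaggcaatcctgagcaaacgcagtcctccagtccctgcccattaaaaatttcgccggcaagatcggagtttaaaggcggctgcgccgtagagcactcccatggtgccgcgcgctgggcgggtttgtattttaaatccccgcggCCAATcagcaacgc
Cenpf (chr1:189688087-189688336, minus strand): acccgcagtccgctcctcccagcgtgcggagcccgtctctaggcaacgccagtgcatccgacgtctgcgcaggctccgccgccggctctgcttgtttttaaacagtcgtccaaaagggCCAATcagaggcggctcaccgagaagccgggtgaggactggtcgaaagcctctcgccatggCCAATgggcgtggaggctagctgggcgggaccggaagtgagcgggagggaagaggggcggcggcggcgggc
Ccnb1 (chr13:100786487-100786736, minus strand): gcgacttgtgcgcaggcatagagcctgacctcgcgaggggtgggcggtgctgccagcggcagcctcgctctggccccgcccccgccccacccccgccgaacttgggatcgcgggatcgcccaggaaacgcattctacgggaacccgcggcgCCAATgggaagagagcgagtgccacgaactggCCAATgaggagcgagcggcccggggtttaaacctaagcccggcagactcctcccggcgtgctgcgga

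*Cenpf* and *Ccnb1* each held 2 CCAAT boxes in this stretch, 132 and 71 and 99 and 67 bases before the start, *Plk1* held 1, and none matched in *Nusap1*. Of the 22 mitosis genes, 18 were found among the promoters, and 16 of these (88.9%) held a CCAAT box, against 35.7% of all 18173 promoters matched and 37.9% of those of genes called higher. The cell cycle homology region (CHR; TTTGAA on either strand, counted apart from the CCAAT box) matched in 7 of the 18 (38.9%), against 14.3% of all promoters, and in none of the 4 printed. These shares describe letters in a window and not binding.

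DNA replication genes differed by less. Of 22 tested, 18 were higher and none lower, and the median log2 fold change was 0.93. The licensing gene *Cdc6* (7.29, 5.86 and 7.67 against 2.61, 3 and 1.99 CPM, 1.45 ± 0.34, adjusted p = 0.00465), the polymerase gene *Pola1* (23.9, 25.8 and 21.4 against 8.39, 9.56 and 9.4 CPM, 1.38 ± 0.22, adjusted p = 0.000175) and the helicase genes *Mcm5* (1.37 ± 0.31) and *Mcm3* (1.33 ± 0.22) led. Cell cycle inhibitors and p53 targets ran the other way, with 10 of 19 lower and 3 higher. *Cdkn2b* (p15), an inhibitor of the G1 kinases, had 35.6, 40.9 and 39.3 CPM against 135, 125 and 130 CPM (-1.75 ± 0.23, adjusted p = 2.69e-05), the p53 target *Pmaip1* 46.5, 48 and 42.7 CPM against 126, 126 and 124 CPM (-1.45 ± 0.17, adjusted p = 1.22e-05), and the antiproliferative gene *Btg2* 50.2, 53.6 and 52 CPM against 118, 119 and 115 CPM (-1.18 ± 0.2, adjusted p = 0.0003).

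Genes of cholesterol synthesis and uptake were higher in HFc as well, 16 of 20 tested against 0 lower, with a median log2 fold change of 0.89 and summed levels of 1490 to 1530 CPM and 823 to 870 CPM. *Dhcr7*, a reductase of the last steps, had 11, 11.9 and 14.2 CPM against 4.74, 4.43 and 4.22 CPM (1.46 ± 0.22, adjusted p = 0.000101). *Insig1*, the sterol sensor that retains SREBP, had 77, 79.5 and 78.4 CPM against 30.1, 29.2 and 31.4 CPM (1.37 ± 0.38, adjusted p = 0.0121), and *Cyp51* 118, 128 and 120 CPM against 51.8, 50.1 and 47.6 CPM (1.29 ± 0.3, adjusted p = 0.00465). Of the 12 called members found among the promoters, 11 (91.7%) held a CCAAT box. Of 22 genes of glycolysis and hypoxia, 2 were higher and 3 lower, below the shares of all genes in this fit. Without any one library at most 1 was higher. A fit of the 9 cultured libraries called 9 of the list higher and 6 lower, where it called 3746 and 3890 of 15342 genes. *Hk2*, hexokinase, had 35.7, 35.9 and 36.5 CPM in HFc and 134, 133 and 133 CPM in KFc (-1.89 ± 0.21, adjusted p = 7.33e-06), and the glucose transporter *Slc2a1* 18.9, 23.4 and 25.4 CPM against 48.1, 51.4 and 47.3 CPM (-1.12 ± 0.28, adjusted p = 0.00613).

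**Figure D4:**
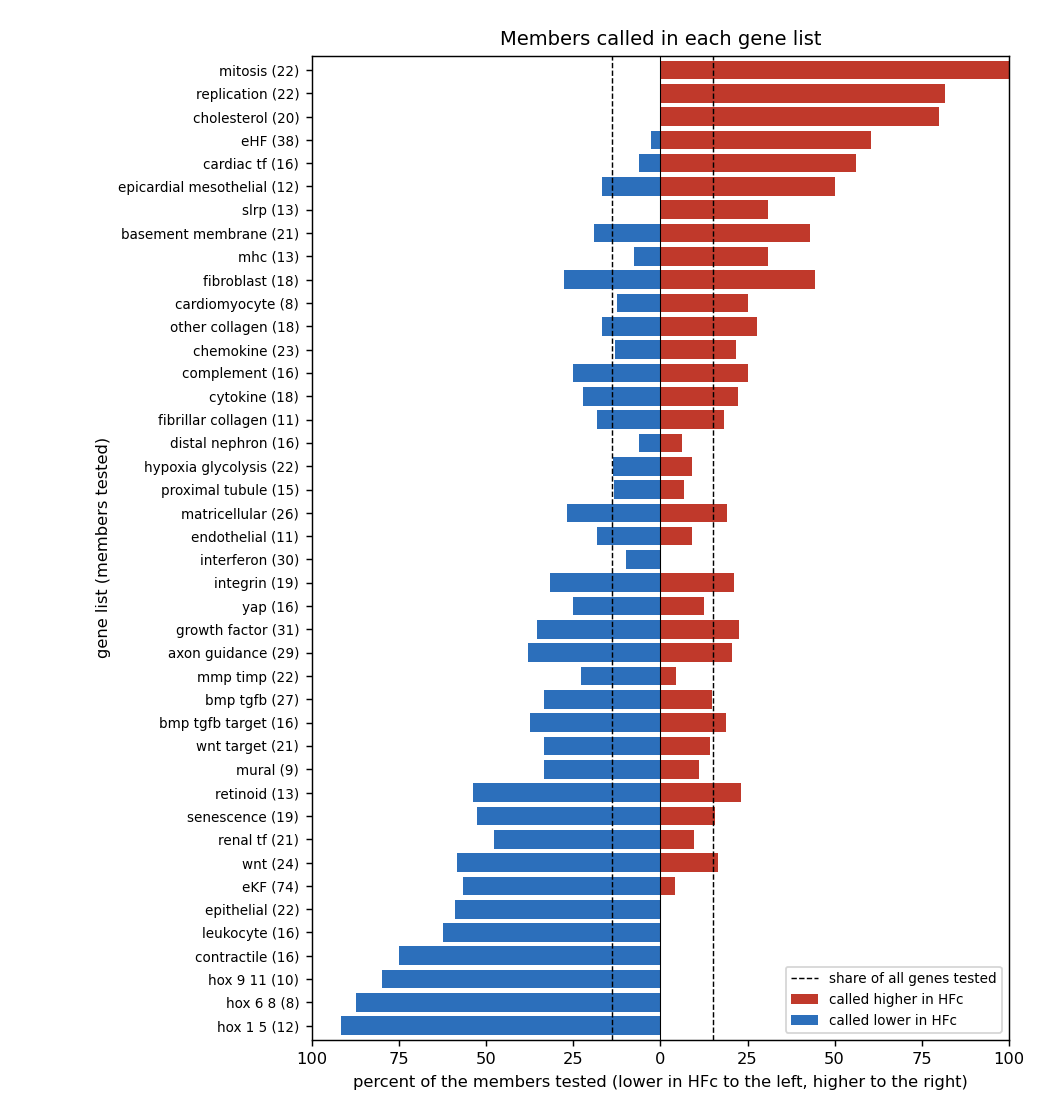
Share of the tested members of each gene list (lists with at least 8 tested members, number in parentheses) called higher (red, to the right) or lower (blue, to the left) in HFc than in KFc, in percent. Dashed lines mark 15.1% and 14.0%, the shares among all genes tested; mitosis stands at 22 of 22 on the right, and *Hox* genes, contractile, leukocyte and epithelial lists extend furthest to the left.

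Leukocyte genes were lower in HFc, 10 of 16 tested, with none higher and a summed level of 129 to 147 CPM in HFc, 526 to 574 CPM in KFc and 205 to 234 CPM in TFc. The macrophage receptor *Csf1r* had 12.5, 15.1 and 16.6 CPM in HFc and 77.2, 81.2 and 72.4 CPM in KFc (-2.39 ± 0.21, adjusted p = 5e-07). The macrophage markers *Cd14* (0.812 to 1.38 against 9.47 to 11.8 CPM, -3.18 ± 0.51, adjusted p = 0.000213) and *Adgre1* (F4/80; 3.59 to 4.16 against 21 to 23.2 CPM, -2.52 ± 0.64, adjusted p = 0.00725) were lower too. The pan-leukocyte gene *Ptprc* (CD45) was present in all 6 libraries, at 5.36, 5.42 and 5.45 CPM in HFc and 14.8, 15.7 and 15.1 CPM in KFc, and was not called (-1.49 ± 0.64, adjusted p = 0.0932). The T cell gene *Cd3e* had no count in either type. Some immune genes that macrophages also make were lower as well, among them *Il1rn* (-6.41 ± 0.9), *C5ar1* (-3.12 ± 0.58) and *Ccl4* (-4.68 ± 1.2). The chemokine, cytokine and complement lists given next held calls in both directions, and the part of leukocytes in these genes was not tested.

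Of 23 chemokine genes, 5 were higher and 3 lower, beside 15.1% and 14.0% of all genes tested, the former 3 without KFc replicate 2. *Cxcl5* had 7.98, 5.75 and 6.19 CPM in HFc and 0.634, 0.0698 and 0.366 CPM in KFc (4.22 ± 0.64, adjusted p = 0.000134), and *Cxcl14* 0.984, 1.29 and 1.33 CPM against 19.2, 18.4 and 19.2 CPM (-3.98 ± 0.26, adjusted p = 2.38e-08). Of 18 cytokine and inflammation genes, 4 were higher and 4 lower, and without any one library 2 were higher. *Ptgs2*, the inducible cyclooxygenase, had 17.3, 18.1 and 15.3 CPM against 329, 347 and 316 CPM (-4.29 ± 0.49, adjusted p = 8.61e-06), and *Il11* 0.401 to 0.491 CPM against 2.72 to 3.42 CPM (-2.78 ± 0.45). *Serpina3n*, of a family with near-identical copies, had 103, 103 and 161 CPM against 3.99, 4.5 and 3.99 CPM (4.87 ± 0.74, adjusted p = 0.000132). Complement genes were 4 of 16 higher and 4 lower, beside the same shares of all genes. *Cfi* was higher (5.59 ± 0.95), and *C2* (-4.13 ± 0.67) and *C1s1*, which has a near-identical copy, were lower (-4.06 ± 0.49). Of 13 genes of class I antigen presentation, 4 were higher and 1 lower, and without 1 library (any but HFc replicate 2) 2 were higher. The light chain *B2m* was higher, with 233, 223 and 229 CPM against 125, 131 and 124 CPM (0.85 ± 0.17, adjusted p = 0.00164).

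Calls of interferon-induced genes, like those of several lists above, depended on the libraries fitted. Over all 18 libraries, 0 of 30 were higher and 3 lower in HFc, with a median log2 fold change of 0.51, and a fit of the 9 cultured libraries alone called 11 higher. The list summed to 299 to 399 CPM in HFc, 229 to 241 CPM in KFc and 242 to 257 CPM in TFc. The 3 lower genes, *Gbp2*, *Oas1a* and *Oas3*, have near-identical family members, and without HFc replicate 3 the list held 1 lower and 1 higher. The biological coefficient of variation was 0.24 over all 18 libraries and 0.0782 over the 9 cultured ones.

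Markers of the remaining cell types were called in both directions. Of 7 podocyte genes tested, 2 were higher and 3 lower, with a median log2 fold change of -2.24. The list summed to 869 to 901 CPM in HFc and 181 to 193 CPM in KFc, so that the sum and the median differed in direction. The phospholipase *Plce1* was higher (35.5, 48.1 and 44.2 against 4.14, 4.08 and 5.62 CPM, 3.2 ± 0.24, adjusted p = 1.04e-07), and *Clic5*, of foot processes, was lower (-3.92 ± 0.62). Of 11 endothelial genes, 1 was higher (none without KFc replicate 1 or 2) and 2 lower, and 3 had at most 3 counts over each of HFc and KFc. *Pecam1* (CD31) had 27.1, 27.2 and 28.3 CPM in HFc and 28, 25.4 and 25.2 CPM in KFc (0.07 ± 0.13, adjusted p = 0.748), *Kdr* had 0.102 to 0.546 CPM against 2.91 to 3.94 CPM (-3.58 ± 0.86, adjusted p = 0.00509), and *Cldn5* and *Sox17* were at 0 in both. Of 5 glial genes, *S100b* was higher (2.76 ± 0.68, adjusted p = 0.00635) and *Sox10* was at 0 in both. Of 6 adipocyte genes, 3 were lower, with *Cebpa* at 0.491 to 0.911 against 9.67 to 10.9 CPM (-3.98 ± 0.26, adjusted p = 2.37e-08), and *Adipoq*, *Plin1*, *Cidec* and *Lep* were at 0 in both.

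**Figure D5:**
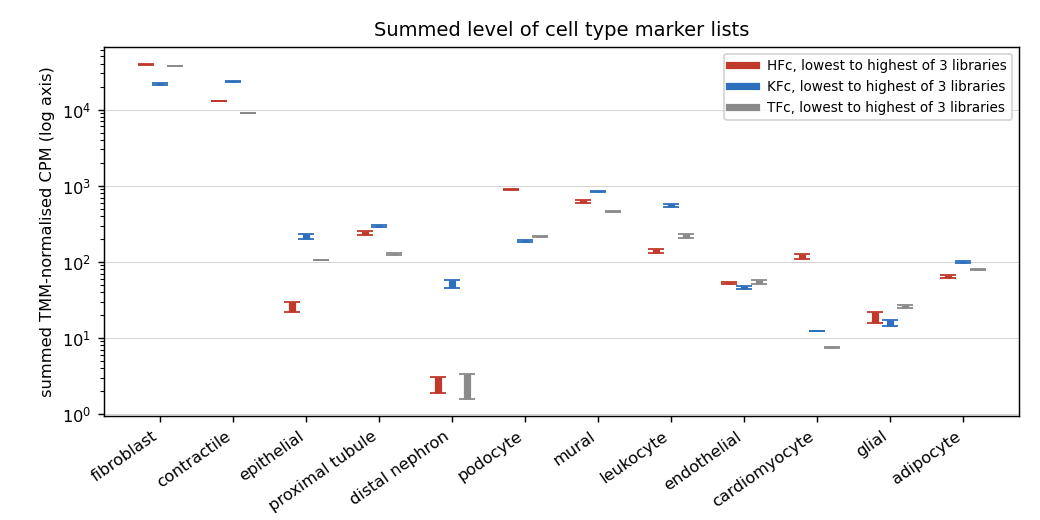
Summed level of each marker list in HFc (red), KFc (blue) and TFc (grey), in CPM on a log axis, with each bar from the lowest to the highest of 3 libraries. Epithelial, distal nephron, leukocyte and contractile sums are higher in KFc than in HFc, and the fibroblast, podocyte and cardiomyocyte sums are higher in HFc. The median podocyte gene tested was lower in HFc.

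The transplanted cells share no library with HFc and KFc. According to the paper, the cells left over from transplantation were plated again as the cultured controls, so that both came from the same cultures. Both contrasts also share the estimate of the spread. The same contrast was read in the transplanted cells and is not independent of that in culture. There, the same test called 2356 genes higher and 3148 lower in HFs, and 3071 and 3499 without KFs replicate 3, a library labelled as male with 0.722 CPM of the Y-linked genes. Without that library, 1732 of the 4833 genes called in culture were called the same way (35.8% of these and 26.4% of the transplant calls), and 827 the opposite way. Over all 16923 genes tested in that fit, 3071 were higher and 3499 lower in HFs. *Tbx20* (406 ± 38.3 CPM in HFs and 0.0454 ± 0.0483 CPM in KFs, SD, n = 3) and *Gata4* (63.8 ± 5.22 and 0.0562 ± 0.0655 CPM) kept their direction, with differences of 12.87 ± 0.39 and 9.91 ± 0.36. *Hoxc8* had 0.236 ± 0.269 CPM in HFs and 42.7 ± 18.5 CPM in KFs (-7.51 ± 0.53, adjusted p = 5.37e-07). *Pax8* had 2.18 ± 1.59 and 39.7 ± 60.3 CPM, and its call (-4.16, adjusted p = 0.00777) was lost without KFs replicate 3 (-1.13, adjusted p = 0.0627), as was that of *Krt8* (from -3.56, adjusted p = 0.02, to -0.36, adjusted p = 0.625).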

How the data were processed

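Each library was read from a total RNA preparation made with the SMARTer Stranded Total RNA-Seq v2 Pico kit and sequenced as single-end reads of 75 bases. The authors used Bowtie and RSEM, and the expected counts they deposited are whole numbers without normalization. The paper names GRCm38, and the submitters' processing notes list mm9. Positions and symbols here are those of GENCODE mouse release 21 (GRCm38), which held 37607 of the 38924 identifiers, and the other 1317 took 0.2771% of counts. All 18 libraries held between 17927838 and 32245168 counts. Groups were taken from the sample titles.

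For the test, edgeR 4.0.16 under R 4.3.3 filtered genes by group (filterByExpr), scaled libraries by TMM and fitted glmQLFit and glmQLFTest, with 1 mean per group over all 18 libraries, two-sided, with Benjamini-Hochberg adjustment over the 16577 genes tested and a threshold of 0.05. The standard error is the log2 fold change divided by the square root of F. Groups at 0 counts were set to 3 counts over the group for bounds, and with 1 to 3 counts the ratio has an exact 95% counting interval. Exact permutation of 3 against 3 cannot pass 0.05 and was not used. On simulated counts of 16211 genes, the test found 62 of 100 genes changed 2-fold and 89 of 100 changed 4-fold, with 5 false calls. The simulation gave each gene the same spread in all groups, unlike the libraries here, so these rates do not carry over to them. Repeat libraries of HFc or of KFc differed by more than counting noise, with a mean chi-square per gene between 4.74 and 6.87. Among transplanted libraries this value reached 258, for KFs replicates 2 and 3. The biological coefficient of variation was 0.24 over all 18 libraries and 0.0754 over HFc and KFc alone. A gene not called over all 18 libraries can therefore be called in a fit of HFc and KFc alone.

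The 48 gene lists (899 genes) and the comparison were chosen with earlier results of these data known. The text names the 10 protein-coding genes with the largest called difference in each direction (at least 5 CPM, no overlap), the 5 with the largest difference in CPM, the 4 largest called members of each list, all cardiac, renal and *Hox* factors, and genes the study names. Genes at 0 counts in a marker list are named as well, and any other name is said to have been picked with its values in view. Some genes that the rule takes are not reported here. Alternatives were DESeq2 1.42.0, other scaling, filters, thresholds and libraries, thinning, a replicate block and each library left out. Promoters were taken from RefSeq (GRCm38.p6), and figures were drawn with matplotlib 3.10.9. No columns of the authors' own comparisons were used.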

Additional observations from a re-analysis of the deposited data

Results flagged for a closer look

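For 11 of the 20 genes with the largest differences, the heart minus kidney difference after transplantation itself differed from that in culture. The test was the interaction contrast of edgeR's quasi-likelihood fit, Benjamini-Hochberg adjusted over all genes tested. It called 4347 of all 16577 genes tested, and 5962 of 16923 without KFs replicate 3. The 20 genes were chosen for their difference in culture, which the contrast subtracts in the same libraries, so that the choice favours a smaller difference after transplantation, as all 11 show. The values are the log2 difference after transplantation minus that in culture.

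On the heart side, the difference was smaller after transplantation for *Lrrn4* (-5.41, adjusted p = 0.00363), *Gpm6a* (-5.2, adjusted p = 0.000731), *Rhox5* (-4.39, adjusted p = 0.00285), *Scn7a* (-4.31, adjusted p = 0.0362), *Six2* (-2.93, adjusted p = 0.018) and *Hand2* (-2.27, adjusted p = 0.00261). *Lrrn4* had means of 0.901 CPM in HFs and 0.246 CPM in KFs, and *Scn7a* was 90.7 ± 38.6 CPM in HFs and 11.7 ± 16.1 CPM in KFs (SD, n = 3). Without KFs replicate 3, the value of *Gpm6a* was -3.45 (adjusted p = 0.00375), and that of *Six2* was -2.43 and not called (adjusted p = 0.0929).

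On the kidney side, the difference was smaller after transplantation for *Cdh16* (10.42, adjusted p = 0.0142), *Hcn4* (7.59, adjusted p = 0.0146), *Hoxa9* (7.04, adjusted p = 0.0014), *Hoxc8* (6.4, adjusted p = 0.0209) and *Hoxc10* (4.45, adjusted p = 0.00488). These 5 genes had at most 2 counts in HFc, so that the fitted values depend on the prior count and are not folds. *Cdh16* had 9.08 ± 7.81 CPM in HFs and 23.6 ± 30.5 CPM in KFs, and *Hoxa9* 0.728 ± 0.653 and 17.7 ± 5.24 CPM.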

How the results depend on the processing

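Other tools, scalings, filters and libraries were tried with all 6 HFc and KFc libraries kept. The number of genes higher in HFc (2511) then lay between 1817 (no filter on low counts) and 3746 (fit of the 9 cultured libraries). The number lower (2322) lay between 2246 (replicate block) and 3890 (fit of the 9 cultured libraries). A fit of the 6 libraries alone gave 3643 higher and 3865 lower, and DESeq2 2503 and 2770. Stricter limits gave 1525 higher and 1516 lower at an adjusted p of 0.01, and 958 and 1515 with a log2 fold change above 1 or below -1. Without 1 of the 6 libraries, 1869 to 1948 were higher and 1816 to 1941 lower, and the distance between HFc and KFc libraries was 4.8 to 4.84. Over all genes tested it was 1.25, since it then averages many small differences. Of the 4732 calls among genes of the 9-library fit, 4712 were called the same way there.

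The labels do not say whether the replicate numbers pair the libraries. The residual correlation was near 0 throughout, at 0.0268, 0.0219 and 0.0119 for HFc and KFc libraries of one number and -0.0222 to 0.000952 for the others. Each library correlated best with its own number, a hint from the data and not the design. The replicate block gave 2417 higher, 2246 lower, 427 of 432 calls in the gene lists and 4126 genes (4347 without it) for the difference between transplant and culture.

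Of 96 list counts (48 lists, 2 directions), 22 moved by over 1.5 times without 1 library, all of them counts of 7 or fewer genes. Of 212 called genes among those named, 0 changed direction and 30 lost the call without at least 1 library. Beside those given above they include *Ahnak*, *Ankrd37*, *Crim1*, *Ecm2*, *Fmod*, *Fzd10*, *Gbp2*, *H2-D1*, *Nkd1*, *Pgf*, *Ptpro*, *Tek* and *Tyrobp*.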
